A study of Mus musculus with 461 samples.

Results

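Day 3 of a reprogramming course was set against day 1 in the cells whose titles start with b2. All 58 cells of each day entered, chosen by title alone, which makes 116 of the 461 cells of the series. Each was a single mouse cell sequenced on the Fluidigm C1 system, which captures cells one by one and copies their RNA without molecular identifiers. The labelled source of both days was mouse embryonic fibroblasts of the OG2 transgenic line, whose cells fluoresce green once the Oct4 gene (Pou5f1) is active, a strain mix of 1/2 129SVJ with 3/8 C57B6 and 1/8 CBA. Both days carry the name 7F and grew in iCD1, a defined medium, whereas fibroblasts were kept in serum. The labels name neither the factors nor the animals or cultures, and do not say what the prefix means. Prefix b1 has a second set of day 3, with 61 cells of the same line, and none of day 1.

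Reprogramming returns a differentiated cell to the pluripotent state of the early embryo. Embryonic fibroblasts are mesenchymal cells that hold actin stress fibres and secrete collagen matrix, and in culture many take on the contractile genes of myofibroblasts, driven by TGF-beta, by serum response factor and by YAP. The 7F cocktail known from the literature is made of Esrrb, Glis1, Jdp2, Kdm2b, Map2k6, Nanog and Sall4 and leaves out Oct4 and Sox2, so native Pou5f1 and its companions have to be switched on by the cell. Dppa5a and Zfp42 (Rex1) are late markers of that native network.

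Cells of 1 day came from 1 set and are not replicates, so day 3 against day 1 within b2 has no test. It is described by the levels of both days in CPM (counts per mega-count, of counts summed over 58 cells), their log2 ratio, and the number of cells with a TPM (length-scaled abundance) of 1 or more. A ratio of 2-fold or more is called past 2-fold. The edgeR quasi-likelihood test, adjusted by Benjamini-Hochberg over 22378 genes, set both day 3 sets (b1 and b2) against day 1. "Rose" and "fell" mark genes with an adjusted p under 0.05 there, and the level of the b1 set stands beside them. Genes with 0 or few counts on day 1 get a lower bound (from 3 counts) or a counting interval in place of a fitted fold.

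Counts per cell had a median of 2.54 M (M, mega) on day 1, with a range of 0.757 to 5.41 M, and of 1.96 M on day 3, with a range of 0.748 to 4.45 M. The median number of genes with counts was 9440.5 and 8670.5, or 7471.5 and 6895.5 with every cell thinned to 300000 counts. No cells had identical counts. The fibroblast genes Vim, Fn1 and Sparc were found in 56 or more of the 58 cells on both days, and so were most factors of the cocktail. Of the 4 genes given as markers of the comparison, Acta2 was higher on day 1, and Pdk1, Dppa5a and Pou5f1 on day 3.

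Of 10764 genes with a mean of 5 CPM or more over both days, 1652 (15.3%) were past 2-fold higher on day 3, 1074 (9.98%) lower, and 2726 (25.3%) either way. The median log2 ratio of all of them was 0.02, and 548 were past 4-fold higher against 192 lower. The share of higher genes among those past 2-fold was 60.6%. It was 76% with library totals in place of TMM factors, 79.4% with equal weight for every cell, 88% with mean TPM and 48.3% without the highest cell of each gene and set, while the median of the 10764 genes shifted to 0.22, 0.25, 0.43 and −0.10. A gene under 5 CPM on 1 day passed that minimum through the other day alone and had to be higher there, as 613 of the 1652 higher and 297 of the 1074 lower genes did. Such members are counted beside each list, and the list counts are no support by themselves. The edgeR test called 90 genes (0.402% of 22378), 55 higher (0.246%) and 35 lower (0.156%), of which 63 were also past 2-fold the same way within b2. Of the 90, 54 were still called without the b1 set of day 3, 19 without the b2 set and 16 without the highest cell, and in 39 a single cell held 50% or more of the higher set's counts. Of the 46 called genes named here, DESeq2 called 23 and left 23 without a call, among them Pdk1 (adjusted p = 0.204), Dppa5a (0.177), Zfp42 (0.369), Apela (0.768), Myl9 (0.0643), Col1a1 (0.0932) and Il11 (0.29). With the prefix as a block in the fit 8 genes were called in all, 5 higher and 3 lower, among them Acta2, Trh, Dppa5a, Zfp42, Tfcp2l1, Dppa3 and Gal, so most calls named below ended there. With all 10 sums of cells edgeR called 0 genes (363 with unadjusted p under 0.05), and so did limma on TPM (741). The plot of both levels shows genes past 2-fold and called genes on both sides of the diagonal.

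**Figure D1:**
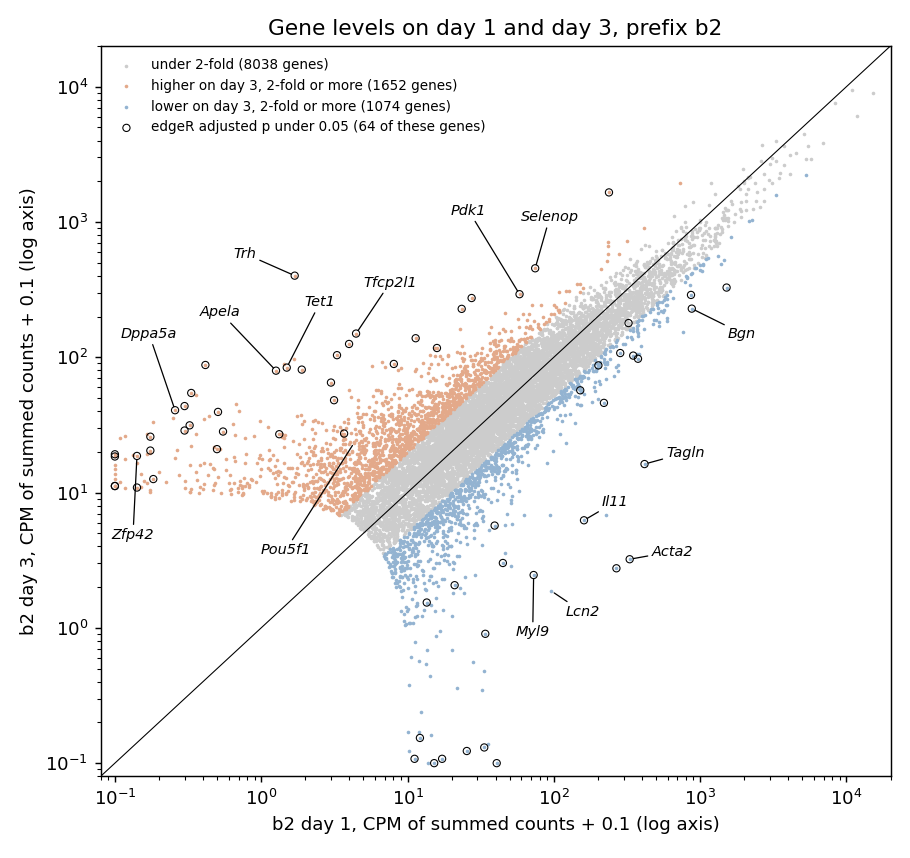
Level of each of the 10764 tested genes on day 1 (x axis) and day 3 (y axis) of prefix b2, in CPM of summed counts + 0.1 on log axes, with genes past 2-fold in colour and genes called by edgeR ringed. Acta2, Tagln, Myl9, Il11 and Lcn2 lie far below the diagonal, and Trh, Apela, Tfcp2l1 and Tet1 far above it.

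Many contractile genes were lower on day 3. Of 22 contractile and cytoskeletal genes 20 reached 5 CPM, and 11 of these were lower by 2-fold or more and 0 higher, against 9.98% and 15.3% of all genes. Of the 11, 5 (Acta2, Cnn1, Myl9, Myh11 and Des) passed the minimum through day 1 alone. Their median log2 ratio was −1.17, and −0.96 to −1.43 under the other scalings and choices of cells. The edgeR test called 5 of the 22, all lower, against 0.156% of all genes: Acta2, Tagln, Cnn1, Myl9 and Des. In single cells the median number of the 22 genes found went from 16 on day 1 to 11 on day 3, and was 12 in the b1 set of day 3.

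Acta2 (ENSMUSG00000035783), alpha smooth muscle actin and the classical myofibroblast marker, ran from 0 to 3309 TPM in the day 1 cells with a median of 26.8, and from 0 to 40.3 TPM with a median of 0 on day 3. It was found in 45 of 58 cells on day 1 (77.6%, exact Clopper-Pearson 95% interval 64.7 to 87.5%) and in 5 of 58 on day 3 (8.62%, 2.86 to 18.98%). All 5 of those day 3 cells lay within the day 1 range, and the other day 3 cells were below 1 TPM. The summed level was 329.8 CPM on day 1, 3.12 CPM on day 3 and 5.92 CPM in the b1 set, and Acta2 fell by 6.19 ± 0.48 (log2, SE; edgeR adjusted p = 5e-33). It was also called without the b1 set of day 3 (adjusted p = 5.03e-12), without the b2 set (8.73e-09) and without the highest cells (2.64e-09).

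Tagln, an actin-binding protein of smooth muscle, ran from 0 to 3136 TPM with a median of 82.4 on day 1 and from 0 to 886 TPM with a median of 0 on day 3. Its cells numbered 50 and then 5. One day 3 cell held 84.2% of the day 3 counts of Tagln and 88.96% of those of Myl9, so the day 3 levels of these genes describe mainly that cell. Tagln stood at 416.6, 16.1 and 51.2 CPM on day 1, day 3 and in the b1 set, and fell by 3.63 ± 0.43 (edgeR adjusted p = 3.08e-13). Myl9, a myosin light chain, stood at 72.7, 2.36 and 13.8 CPM with 34, 4 and 20 cells, and fell by 3.17 ± 0.57 (edgeR adjusted p = 3.26e-05). The intermediate filament gene Des went from 33.9 to 0.804 CPM (adjusted p = 0.0152), and the calponin gene Cnn1 from 13.4 to 1.44 CPM (9.24e-05), of which 99.5% was in 1 cell. Tagln kept its call with the b1 set of day 3 left out (2.09e-06) and with the b2 set left out (0.0247). The calls of Myl9 (adjusted p = 0.486) and Des (1) ended without the b2 set of day 3, and that of Cnn1 whichever set was left out (0.0608 without b1, 0.0544 without b2).

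The broadly used cytoskeleton differed less. The nonmuscle myosin gene Myh9 was found in all 58 cells of both days at 780.4 and 481.2 CPM (log2 ratio −0.70), and Tagln2 stood at 588.3 and 364.9 CPM (−0.69). Tpm1 had a log2 ratio of −0.49. Cnn2, a calponin found in 57 and 39 cells, was past 2-fold lower at 393.2 and 121.4 CPM, as was the alpha-actinin gene Actn1 at 258.6 and 72.6 CPM, and neither passed the test (edgeR adjusted p = 0.414 and 0.169).

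The promoters of these genes are shown because serum response factor drives many contractile genes through a short element, the CArG box. The lines give the 250 bases before the start of the RefSeq transcript in build GRCm38.p6, 5′ to 3′ on the gene's strand, with an exact CArG box on either strand in capitals. They are Acta2 at chr19:34255374-34255623 (minus strand), Myl9 at chr2:156775214-156775463 (plus strand) and Cnn2 at chr10:79988350-79988599 (plus strand).
Acta2: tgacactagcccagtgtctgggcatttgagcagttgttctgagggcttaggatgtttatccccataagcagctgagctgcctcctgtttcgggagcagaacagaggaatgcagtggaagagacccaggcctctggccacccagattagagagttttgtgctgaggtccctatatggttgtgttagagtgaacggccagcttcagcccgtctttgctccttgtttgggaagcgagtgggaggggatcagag
Myl9: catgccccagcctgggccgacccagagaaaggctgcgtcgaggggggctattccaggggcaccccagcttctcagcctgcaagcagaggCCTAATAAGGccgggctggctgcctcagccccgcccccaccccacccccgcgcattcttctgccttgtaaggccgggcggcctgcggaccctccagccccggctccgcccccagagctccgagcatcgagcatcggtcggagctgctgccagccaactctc
Cnn2: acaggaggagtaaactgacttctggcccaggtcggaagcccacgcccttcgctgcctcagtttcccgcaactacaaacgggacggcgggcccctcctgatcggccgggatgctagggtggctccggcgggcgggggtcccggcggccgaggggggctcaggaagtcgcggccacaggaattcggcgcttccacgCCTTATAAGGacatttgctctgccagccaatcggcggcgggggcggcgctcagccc
The box starts 161 bases before the start of Myl9 and 56 bases before that of Cnn2. The Acta2 window holds no exact match, but ccctatatgg and ccttgtttgg in it each differ from an exact box by 1 base. Such near matches were neither marked nor counted. Of the 19 contractile genes with a window, 4 held an exact box (21.1%: Cnn2, Myl6, Myl9 and Vcl), against 1.62% of all 27025 genes with one. Myl6 (log2 ratio −1.43) was lower on day 3 like Myl9 and Cnn2, while Vcl (0.40) was not past 2-fold. A match is a run of letters and not a measured site.

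Matrix genes were lower in part. Of 44 fibroblast matrix genes 41 reached 5 CPM, with 13 lower, 4 higher and a median log2 ratio of −0.43. These are 31.7% lower and 9.76% higher, against 9.98% and 15.3% of all genes. Of these, 2 of the lower passed through day 1 alone, and 3 of the higher (Lum, Thbs2 and Thy1) through day 3 alone. In edgeR 5 of the 44 members fell, against 0.156% of all genes: Col1a1, Bgn, Eln, Lox and Loxl2. This list depends on the scaling: with mean TPM 3 were lower and 5 higher, and the median was 0.04 against 0.43 for all genes. Bgn, the matrix proteoglycan biglycan, ran from 13.1 to 1679 TPM in the day 1 cells with a median of 297.4, and from 0 to 1683 TPM with a median of 31.96 on day 3. The ranges of both days overlapped, with most day 3 cells low in them, and the level went from 876.7 to 228.7 CPM, with 335.6 CPM in the b1 set (edgeR adjusted p = 0.0353). Col1a1, a chain of the main fibroblast collagen, was found in 50 and then 20 cells (86.2% and 34.5%) and stood at 284.3 and 107.3 CPM (edgeR adjusted p = 0.0463).

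The collagen crosslinker gene Lox had 20.9 CPM on day 1, 1.97 on day 3 and 0.813 in the b1 set, a fall of 3.91 ± 0.61 (edgeR adjusted p = 1.8e-07). It was still called with 1 day 3 set left out (0.0229 without b1, 0.000249 without b2). The calls of Bgn, Col1a1 and Eln ended whichever day 3 set was left out (adjusted p = 0.644 to 1), and that of Loxl2 without b1 (1). Other genes of the list were level or higher in b2. Fn1 (log2 ratio −0.07), Sparc (−0.24) and Vim (0.73) were abundant on both days. Col3a1 (1.69), Thbs2 (2.62) and Thy1 (2.78) were past 2-fold higher, with 38.5%, 41.5% and 34.99% of their day 3 counts in 1 cell each. In the b1 set Thy1 (1.23 CPM, against 4.02 on day 1) and Col3a1 (17.9 against 20.97) lay below day 1. So did Vim, Fn1 and Sparc, while Thbs2 (3.36 against 2.97 CPM) lay above it. Lum, at 0.257 and 52.8 CPM, had 57.8% of its day 3 counts in 1 cell. Of 14 mesenchymal transcription factor genes 12 reached 5 CPM, with 2 lower (Osr1 and Snai1) and 1 higher, Meox2 (0.614 and 11.3 CPM, in 2 and 4 cells). These are 16.7% lower and 8.33% higher, against 9.98% and 15.3% of all genes. Osr1 passed the minimum through day 1 alone and Meox2 through day 3 alone. A single cell held 58.3% of the day 1 counts of Osr1, and a single cell 88.98% of its day 3 counts. Osr1 fell, from 44.8 to 2.92 CPM (edgeR adjusted p = 0.00219, 0.383 without b1 and 0.125 without b2 of day 3). Of the others Prrx1 (−0.12), Zeb1 (−0.43) and Twist1 (0.30) were not past 2-fold and Snai1 (−1.02) was lower.

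Signalling genes upstream of these programmes gave mixed counts. Of all genes 9.98% were lower and 15.3% higher. Of 17 TGF-beta genes at 5 CPM or more 4 were lower (23.5%), 3 of these through day 1 alone. Another 3 were higher (17.6%), 1 through day 3 alone, and the list median was −0.05. The receptor gene Tgfbr2 (−0.40) and the negative regulator Skil (0.17) were near level, and the activin subunit gene Inhba had a log2 ratio of −1.59, or 0.034 with mean TPM. Of 14 YAP target genes 2 were higher (14.3%), Nt5e through day 3 alone, and 1 lower (7.14%). Ankrd1 fell from 6.69 to 0.880 CPM (edgeR adjusted p = 1.9e-09, 0.0316 without b1 and 3.85e-08 without b2), and Nt5e, the surface nucleotidase CD73, rose from 3.20 to 103.5 CPM with 43.4 CPM in b1 (adjusted p = 0.00355, 0.83 without b2). Ccn2 stood at 14.9 and 33.4 CPM. Of 15 BMP genes 4 were lower (26.7%), 2 of them through day 1 alone. Among the 4 were Id1 (144.4 and 61.1 CPM) and the antagonist gene Grem1 (119.6 and 37.02 CPM, 41 and 9 cells). In this list 1 gene was higher (6.67%), and 0 were called by edgeR.

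**Figure D2:**
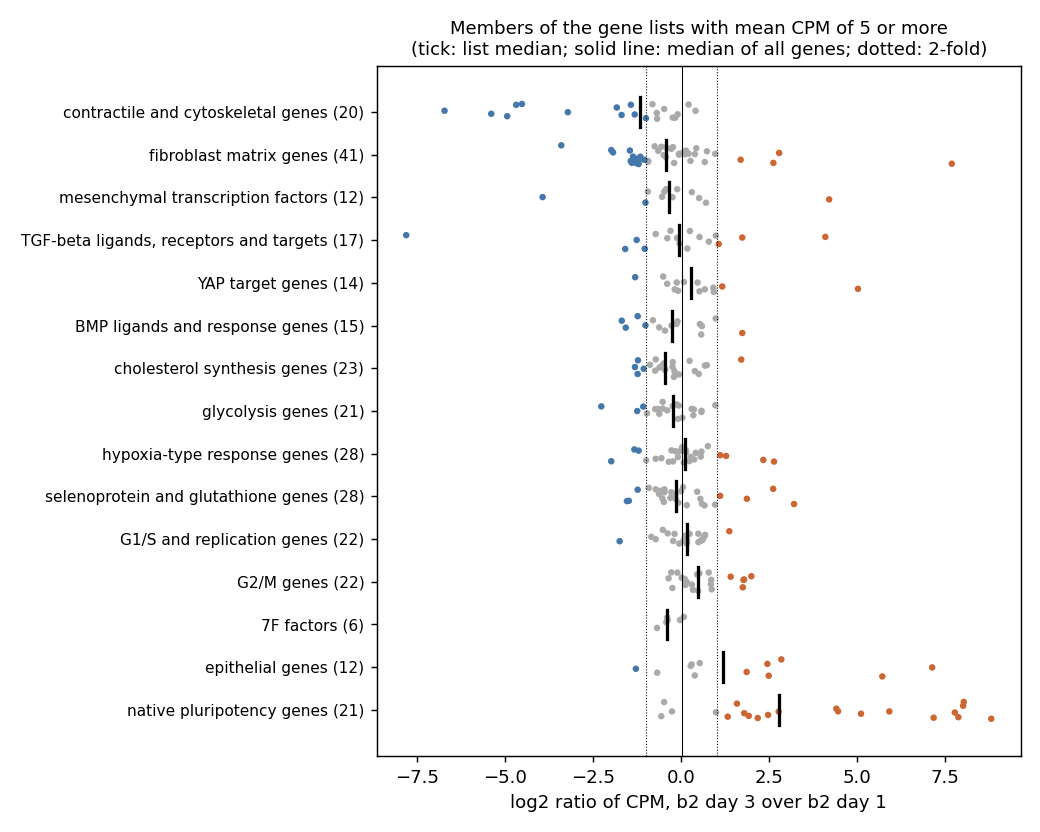
Log2 ratio of day 3 over day 1 within b2 (x axis) for each member of 15 gene lists with a mean of 5 CPM or more, with the number of members in brackets, the list median as a tick and genes past 2-fold in colour. Contractile genes lie to the left with a median of −1.17, and native pluripotency genes to the right with a median of 2.77, a list in which 12 of 21 members passed the minimum only through day 3.

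Native pluripotency genes were higher on day 3. Of 35 such genes (the factors of the cocktail left out) 21 reached a mean of 5 CPM. Of these, 17 were past 2-fold higher (81%, against 15.3% of all genes) and 0 lower. Of the 21, 12 passed that minimum through day 3 alone and had to be higher, so the count says little by itself. Among the 9 that had 5 CPM or more on day 1, 5 were past 2-fold higher, among them Tdh, Klf4, Trim71 and Dnmt3b, and 0 lower. The edgeR test called 15 of the 35, all higher, against 0.246% of all genes: Zfp42, Dppa2, Dppa3, Dppa4, Dppa5a, Lin28a, Utf1, Tdgf1, Fgf4, Tfcp2l1, Gdf3, L1td1, Fbxo15, Lefty2 and Tet1. Of these Dppa2, Dppa4 and Fgf4 had 0 counts on day 1 and could only be called higher, and Lin28a, Dppa3 and Lefty2 had 1 to 3. The list was picked with earlier results of these data known, so this count is no support by itself either. Tcl1 had no count on either day.

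Dppa5a (ENSMUSG00000060461), an RNA-binding protein of embryonic stem cells, ran from 0 to 12.5 TPM on day 1 and from 0 to 5798 TPM on day 3, with a median of 0 on both days. It was found in 6 of 58 cells on day 1 (10.3%, interval 3.89 to 21.2%) and in 24 of 58 on day 3 (41.4%, 28.6 to 55.1%), and after thinning in 3.45% and 36.2%. The level was 0.158 CPM on day 1 and 40.5 CPM on day 3, of which 62.3% was in 1 cell, against 0.671 CPM and 4 of 61 cells in the b1 set. Dppa5a rose (edgeR log2 7.02 ± 0.68, adjusted p = 1.02e-20), also without the highest cells (0.0369), and lost its call without the b2 set of day 3 (0.913). Most day 3 cells of b2 thus lay below 1 TPM like most day 1 cells, 4 lay within the day 1 range above it, and 20 lay above every day 1 cell.

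Zfp42 ran from 0 to 0.66 TPM on day 1 and from 0 to 169 TPM on day 3. No day 1 cell had 1 TPM, which allows a share of up to 5.17% by the limit of 3 counts and 6.16% by the exact interval, and 18 day 3 cells did (31.03%, 19.5 to 44.5%). It rose from 5 counts (0.0415 CPM) to 18.5 CPM, with 0.0946 CPM in b1 (edgeR adjusted p = 3.14e-10, 0.0366 without the highest cells, 1 without b2 of day 3). Pou5f1 (ENSMUSG00000024406), the factor that defines the pluripotent network, ran from 0 to 84.9 TPM with a median of 0 on day 1 and from 0 to 251 TPM with a median of 0.39 on day 3. It was found in 12 cells (20.7%, 11.2 to 33.4%) and then in 27 cells (46.6%, 33.3 to 60.1%), at 4.23 and 23.4 CPM. In the b1 set it stood at 0.525 CPM in 6 of 61 cells, below day 1, and Pou5f1 did not pass the edgeR test (log2 1.496 ± 0.933, adjusted p = 1). The 2 day 3 sets thus lay on opposite sides of day 1 for Pou5f1.

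Other called members with more than 3 counts on day 1 were found in a part of the b2 day 3 cells. The highest cell held from 18.9% (L1td1) to 45.8% (Fbxo15) of their day 3 counts. Tfcp2l1, a transcription factor of the naive state, stood at 4.35 CPM in 4 cells on day 1, at 149.6 CPM in 23 cells on day 3 and at 18.7 CPM in 14 cells of b1 (edgeR adjusted p = 4.27e-08). Tet1, which oxidises methylated cytosine, stood at 1.40, 83.8 and 23.5 CPM (9.29e-10). L1td1, an RNA-binding protein of embryonic stem cells, stood at 0.199, 43.5 and 12.5 CPM (3.14e-10), and Tdgf1, the Nodal co-receptor, at 0.233, 54.4 and 4.72 CPM (3.14e-10). Utf1 (1.23, 26.9 and 5.66 CPM) and the TGF-beta family ligand gene Gdf3 (0.199, 28.6 and 1.11 CPM) were also called. Fbxo15 had 5 counts on day 1, 10.8 CPM on day 3 and no count in b1.

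Of the genes with 0 counts on day 1, Dppa2 was at least 204.3-fold higher on day 3, Dppa4 at least 84.5-fold and the growth factor gene Fgf4 at least 60.5-fold. A single cell held 53.98%, 96.4% and 91.9% of their day 3 counts. With 1 to 3 counts on day 1, the ratio for Lin28a had an interval of 15.7 to 3568, for Dppa3 of 68.2 to 2049 and for Lefty2 of 65.6 to 936.7. A single cell held 98.97%, 53.6% and 54.4% of their day 3 counts. Without the b2 set of day 3 the calls of Tet1 (adjusted p = 0.000553), L1td1 (2.33e-05), Tdgf1 (0.00509), Lin28a (0.000249), Lefty2 (4.35e-05) and Dppa4 (0.018) held, and those of the other 9 called members ended. No call of the 15 ended without the b1 set, with adjusted p of at most 0.0292.

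Several members were already on at day 1. Tdh, an enzyme of threonine breakdown on which mouse embryonic stem cells rely, stood at 70.9 CPM in 32 cells on day 1 and at 244.4 CPM in 43 cells on day 3, with a median of 1.47 and 14.2 TPM (edgeR adjusted p = 0.87). Klf4 had 38.9 and 97.0 CPM (44 and 49 cells). Sox2 was found in 55 and 54 cells at 28.6 and 56.5 CPM, a log2 ratio of 0.98. Mycn (−0.57), Tbx3 (−0.49) and Klf5 (−0.27) were not past 2-fold.

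Counted cell by cell, the day 3 cells of b2 spread further than those of day 1. A day 1 cell had 2 to 12 of the 35 genes at 1 TPM or more, with a median of 6, and a day 3 cell 2 to 30, with a median of 8. In 13 of the 58 day 3 cells (22.4%, interval 12.5 to 35.3%) the number lay above the highest day 1 cell, and in 0 of 58 day 1 cells by construction. The thinned cells gave 14 above a day 1 maximum of 11. In the b1 set of day 3, 2 of 61 cells (3.28%, 0.400 to 11.4%) lay above 12. The 13 cells had 0.833 to 4.45 M counts, close to the full range of their set.

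**Figure D3:**
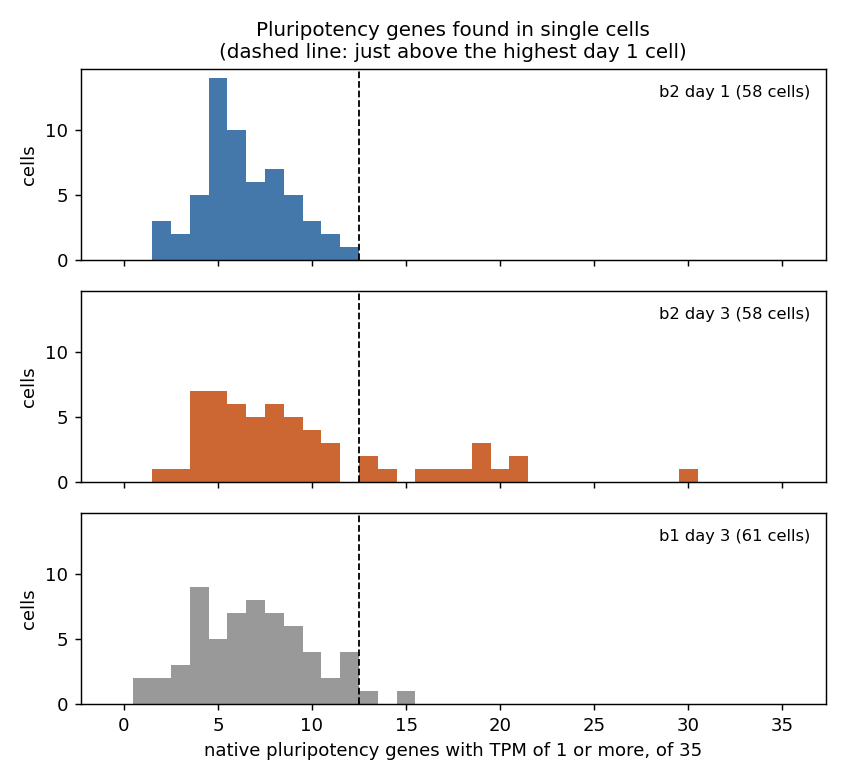
Number of the 35 native pluripotency genes with a TPM of 1 or more in each cell (x axis) and number of cells (y axis) in the 58 cells of b2 day 1, the 58 of b2 day 3 and the 61 of b1 day 3. The dashed line lies just above the highest day 1 cell (12 genes), and 13 cells of b2 day 3 and 2 of b1 day 3 lie beyond it.

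All 13 cells had Pou5f1, 10 had Dppa5a and 9 had Zfp42. These genes belong to the 35 by which the cells were picked, so their numbers follow in part from that choice. Of the same 13 cells 6 had the epithelial adhesion gene Epcam, 1 had Acta2 and 0 had Tagln. Among the 58 day 3 cells as a whole Epcam was found in 12, Acta2 in 5 and Tagln in 5. Over all 58 day 3 cells Pou5f1 and Dppa5a were found together in 16 cells, which is 59.3% of the Pou5f1 cells and 66.7% of the Dppa5a cells. Zfp42 came with Pou5f1 in 14 of its 18 cells, and Apela was found in 23 of the 27 Pou5f1 cells and in 41 of all 58. Acta2 (5 cells) and Pou5f1 (27 cells) shared 1 day 3 cell. On day 1 Acta2 (45 cells) and Pou5f1 (12 cells) shared 7 cells. Whether genes were found together more or less often than their shares of cells imply was not tested.

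**Figure D4:**
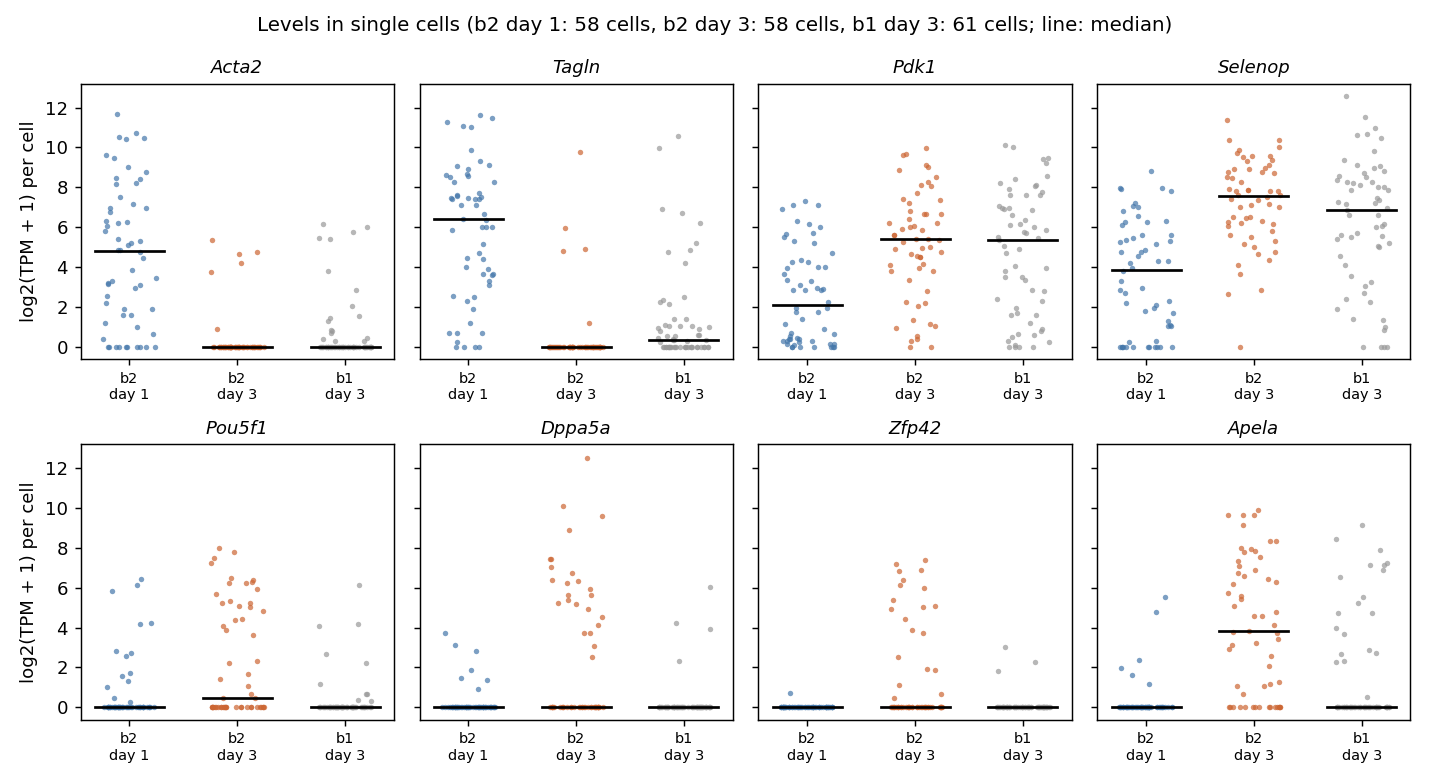
Level of 8 genes in single cells, as log2(TPM + 1) (y axis), in 58 cells of b2 day 1, 58 of b2 day 3 and 61 of b1 day 3, with the median as a line. Acta2 and Tagln are near 0 in most day 3 cells, Pdk1 and Selenop are higher in both day 3 sets, and Dppa5a, Zfp42 and Pou5f1 reach high levels mainly in b2 day 3.

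Pdk1 (ENSMUSG00000006494), a kinase that inhibits pyruvate dehydrogenase and a known target of hypoxia-inducible factor, was higher in both day 3 sets. It ran from 0 to 159.5 TPM with a median of 3.27 on day 1 and from 0 to 1012 TPM with a median of 40.6 on day 3. It was found in 35 cells (60.3%, 46.6 to 72.95%) and then in 52 cells (89.7%, 78.8 to 96.1%). The level was 58.2 CPM on day 1, 292.4 CPM on day 3 and 314.0 CPM in b1, and Pdk1 rose by 2.38 ± 0.58 (log2, SE; edgeR adjusted p = 0.014). With either day 3 set left out the call ended (0.283 without b1, 0.268 without b2), as it did without the highest cells (0.257).

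The hypoxia-type response genes, with Pdk1 counted among them, did not share this difference as a group. Of 28 such genes at 5 CPM or more 4 were higher (14.3%, against 15.3% of all genes), 2 through day 3 alone. The 4 were Pdk1, Adm, Epas1 and Stc2. Another 3 were lower (10.7%, against 9.98% of all genes), 1 through day 1 alone. The list median, Pdk1 included, was 0.10 against 0.02 for all genes. Vegfa, Slc2a1, the glucose transporter of most cells, and Bnip3 had log2 ratios of 0.13, 0.13 and 0.57. Higd1a, a mitochondrial protein, was lower at 231.2 and 91.7 CPM, and Adm (1.27) had 76.97% of its day 3 counts in 1 cell and a ratio of −0.47 without it. Of 21 glycolysis genes 0 were higher and 3 lower (14.3%, against 9.98% of all genes), among them the lactate dehydrogenase gene Ldhb at 5310 and 2228 CPM. Gapdh (−0.98), Ldha (0.34) and Pkm (0.36) were not past 2-fold, and edgeR called 0 glycolysis genes.

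Selenop, the plasma selenium carrier, followed Pdk1. It ran from 0 to 454.4 TPM with a median of 13.5 on day 1 and from 0 to 2652 TPM with a median of 185.9 on day 3, in 44 and 57 cells. The level was 74.5 CPM on day 1, 454.4 CPM on day 3 and 507.0 CPM in b1, a rise of 2.69 ± 0.55 (edgeR adjusted p = 0.000834, 0.0648 without b1 and 0.056 without b2 of day 3). Of 28 selenoprotein and glutathione genes 4 were higher and 3 lower. These are 14.3% and 10.7%, close to the 15.3% and 9.98% of all genes. The cystine transporter gene Slc7a11, which passed through day 3 alone, stood at 1.78 and 16.4 CPM, and the glutathione transferase gene Gstm1 at 44.6 and 162.3 CPM, while Hmox1 (70.03 and 24.9 CPM) and Gpx7 (62.5 and 21.4 CPM) were lower. Gpx2 had 0 counts on day 1 and was at least 216.6-fold higher on day 3, in 4 cells. A single cell held 65.4% of its day 3 counts, and its level was 5.40 CPM on day 3 and 0.392 CPM in b1. The abundant glutathione peroxidase genes Gpx1 (−0.31) and Gpx4 (−0.92) were not past 2-fold.

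Of 23 sterol synthesis genes 4 were lower (17.4%, against 9.98% of all genes: Insig1, Hmgcs1, Lss and Fdps) and 1 higher (Srebf1), with a median of −0.46, and 0 were called by edgeR. Hmgcs1, an early enzyme of the pathway, stood at 1314 CPM on day 1, 556.0 CPM on day 3 and 1124 CPM in b1. With mean TPM 0 were past 2-fold lower. Of 20 amino acid and integrated stress response genes 4 were higher (20%, against 15.3% of all genes), including Asns (57.97 and 167.1 CPM). Another 2 were lower (10%, against 9.98%). Of each, 1 passed through 1 day alone, and Atf4 was level (0.00). Of 15 unfolded protein and heat shock genes 2 were lower (13.3%), Hspb1 and Dnajb9.

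The 7 factors of the published cocktail differed little, and vector and native transcripts cannot be told apart in these counts. Esrrb stood at 875.7 and 853.2 CPM, Nanog at 613.1 and 456.4, Map2k6 at 548.7 and 415.5, Sall4 at 445.3 and 467.7, Jdp2 at 323.2 and 246.9, Kdm2b at 293.2 and 181.8 and Glis1 at 5.39 and 3.45 CPM. Their log2 ratios ran from −0.69 to 0.07, and no factor passed the edgeR test (each adjusted p = 1). Esrrb, Nanog, Jdp2, Kdm2b and Map2k6 were found in all 58 cells of both days. The b1 set had higher levels than b2 day 3 for all 7, such as 1414 CPM of Esrrb and 861.3 CPM of Nanog.

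Epithelial genes, which come on when mesenchymal cells are reprogrammed, were higher in part. Of 28 such genes 12 reached 5 CPM, with 6 higher and 1 lower (50% and 8.33%, against 15.3% and 9.98% of all genes). Of the 6, 3 passed the minimum through day 3 alone. Epcam rose from 0.399 to 20.8 CPM, in 3 and 12 cells (edgeR adjusted p = 0.0386), and the protease inhibitor gene Spint1 from 0.224 to 31.3 CPM, 50.8% of it in 1 cell (0.025). Both were below 1 CPM in b1 and lost their calls without b2 of day 3 (each adjusted p = 1). Spint2 (16.02 and 89.5 CPM) and Krt19 (18.8 and 102.1 CPM) were past 2-fold higher, while Cdh1 (0.52), the E-cadherin gene, and Dsp (0.29) were not, and Krt18 had a ratio of −0.68.

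The largest differences by the fixed rule for widely detected genes began with a pair of peptide hormone genes. Trh, which encodes thyrotropin-releasing hormone, ran from 0 to 44.6 TPM on day 1 and from 0 to 6650 TPM with a median of 1.23 on day 3, in 6 and 34 cells. Its level was 1.59 CPM on day 1, 400.9 CPM on day 3 and 37.4 CPM in b1, and Trh rose by 7.10 ± 0.76 (edgeR adjusted p = 1.19e-16), with a call without the b1 set (3.93e-14), the b2 set (7.61e-05) or the highest cells (0.00952). In the b1 set 1 cell had 4286 TPM of Trh and the next 187.4 TPM, so the b1 level of Trh describes mainly that cell. Apela, a ligand of the apelin receptor made by embryonic stem cells, ran from 0 to 45.6 TPM on day 1 and from 0 to 962.5 TPM with a median of 13.02 on day 3. It was found in 6 cells (10.3%, 3.89 to 21.2%) and then in 41 cells (70.7%, 57.3 to 81.9%), at 1.16 and 79.5 CPM with 16.3 CPM in b1 (edgeR adjusted p = 0.000198, 0.465 without b2 of day 3). Apela was thus found in more day 3 cells than any of Pou5f1, Dppa5a and Zfp42.

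Dcaf12l1 rose from 27.3 to 273.9 CPM, in 22 and 52 cells (edgeR adjusted p = 0.0325, 1 without b2 of day 3). Further rises of the rule, Arap1, Lix1, Etl4, Spopl, Slc16a10, Mical3, Ccdc141 and Tnk2, had log2 ratios of 2.79 to 3.24 and did not pass the test. Among the falls Lcn2, an iron-chelating secreted protein, stood at 95.8 and 1.78 CPM in 30 and 2 cells (edgeR adjusted p = 0.111). Il11, a cytokine that TGF-beta induces in fibroblasts, ran from 0 to 1789 TPM with a median of 22.9 on day 1 and from 0 to 105.0 TPM with a median of 0.36 on day 3. It fell from 160.6 to 6.14 CPM, in 54 and 14 cells, but stood at 46.5 CPM in 53 of the 61 cells of b1 (edgeR adjusted p = 0.0217, 1 without b2 of day 3). The angiopoietin gene Angpt4 fell from 39.3 to 5.60 CPM (0.0135, 0.643 without b1 and 0.358 without b2). A single cell held 80.7% of the day 3 counts of Angpt4. Cthrc1, Clcf1, Fgfr2, Lsp1, Rtl8c and Evc2 had log2 ratios of −2.75 to −3.82 without a call, and Rtl8c in b1 (34.6 CPM) lay above day 1 (20.3 CPM).

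Some called genes outside the rule are named here after their values were seen. Fut9, which makes the SSEA-1 epitope, had 0 counts on day 1 and 18.4 CPM on day 3, at least 738-fold higher, in 13 cells. Ak4, a mitochondrial adenylate kinase, rose from 1.79 to 80.95 CPM with 2.27 CPM in b1 (edgeR adjusted p = 0.00021, 1 without b2). The galanin gene Gal fell from 267.7 to 2.66 CPM, but 81.6% of its day 1 counts were in 1 cell and the call ended without the highest cells (0.495). Pdpn, the mucin podoplanin, stood at 375.9, 97.4 and 79.5 CPM on day 1, day 3 and in b1, the calcium-binding protein gene S100a6 at 865.8, 288.8 and 190.6 CPM, and Ass1, an enzyme of arginine synthesis, at 1516, 327.3 and 612.6 CPM. These 3 fell, with edgeR adjusted p of 0.00598, 0.00968 and 0.0308, and no call held with 1 day 3 set left out.

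Few cell cycle genes were past 2-fold. Of 22 G2/M genes 5 were higher (22.7%, against 15.3% of all genes), Bub1, Kif20a, Kif11, Plk1 and Kif23, by log2 ratios of 1.40 to 1.99, and 0 lower, with a median of 0.46. Top2a (0.51) and Ccnb1 (0.01) were not past 2-fold, Mki67 was found in 31 and 30 cells, and edgeR called 0 members. Of 22 G1/S genes 1 was higher and 1 lower (each 4.55%), the latter Ccne1 at 128.4 and 38.1 CPM. Of 17 CDK inhibitor and p53 target genes 3 were higher and 2 lower (17.6% and 11.8%, against 15.3% and 9.98% of all genes). Of each, 1 passed through 1 day alone. Cdkn1a stood at 840.5 and 704.3 CPM and Cdkn1c at 2171 and 1016 CPM. Of 13 AP-1 and immediate early genes Myc was higher (45.1 and 96.1 CPM) and Egr1 lower (275.5 and 88.1 CPM), each 7.69%. Of 16 imprinted genes 2 were higher (12.5%), Mest and Peg10, and 3 lower (18.8%), Nnat, Phlda2 and Igf2r, with H19 at 2282 and 1236 CPM.

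Chemokine and interferon genes turned on single cells. Of 8 chemokine and cytokine genes 3 were higher and 3 lower (each 37.5%, against 15.3% and 9.98% of all genes). A single cell held 94.7% of the day 3 counts of Ccl2, whose log2 ratio of 2.03 became −1.44 without it. Spp1, osteopontin, was higher at 410.6 and 908.8 CPM in 49 and 57 cells. Of 12 interferon response genes 5 were higher (41.7%), 3 of them through day 3 alone, and 1 lower (8.33%), through day 1 alone. Without the highest cells the counts were 2 and 0. One cell held 94.7% of the day 3 counts of Ifit3 and 63.9% of those of Usp18. The widely detected members Ifitm3 (0.18) and Xaf1 (−0.87) were not past 2-fold.

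Markers of other cell types were summed in CPM. The 10 endothelial markers summed to 52.3 CPM on day 1 and 47.9 on day 3, with Cldn5 at 0, and 1 cell held 91.6% of the day 3 counts of Pecam1. The 10 immune markers summed to 15.5 and 53.6 CPM, mostly Laptm5 (11.5 and 52.3 CPM), with Ptprc, Lyz2, Adgre1, Cd52 and Tyrobp at 0 on both days. The 10 neural markers summed to 134.8 and 342.2 CPM. The 6 that reached 5 CPM had a median log2 ratio of 3.21. Past 2-fold higher were 5 of the 6 (83.3%, against 15.3% of all genes), 3 of them through day 3 alone. Of these Stmn2 rose from 11.3 CPM in 6 cells to 138.1 CPM in 28 cells, with 10.5 CPM in b1 (edgeR adjusted p = 0.023, 1 without b2), and Tubb3 from 0.407 to 39.3 CPM, 51.8% of it in 1 cell (0.00195, 0.858 without b2). Skeletal muscle markers summed to 171.2 and 110.9 CPM with Myod1, Myog, Myf6 and Myh3 at 0, adipocyte and cartilage markers to 199.5 and 157.1 CPM (Sox9 at 175.2 and 148.5 CPM) with Adipoq at 0, and endoderm and trophoblast markers to 77.9 and 116.9 CPM with Sox17 and Cdx2 at 0. The part of other cell types, and of the lower counts per cell on day 3, in the differences above was not tested. With 1 set a day within b2, the day and what else differed between these sets cannot be told apart.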

How the data were processed

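The deposited expected counts are RSEM 1.2.22 estimates of reads per gene and cell, per the submitters' processing notes, and 9.108% of them are not whole. The deposited TPM values were scaled for transcript length and depth within each cell by the authors. Reads were demultiplexed with bcl2fastq, per the same notes. Aligner, genome build and annotation: not given in the sources used here. Of 31673 genes 31426 had a symbol, and 31138 a TPM row, 471 of these through an older symbol. All cells of a title prefix and day were summed and rounded, giving 8 sets of 10 or more cells for TMM scaling. Log2 ratios compare the b2 sets alone, with CPM scaled by the factors from all 8 sets. Cell shares were taken within each set, and values of b1 are named as such. Log2 values with an SE come from the edgeR fit with both day 3 sets. Counts of past 2-fold need a mean of 5 CPM. Found means 1 TPM or more, and intervals, exact at 95%, cover counting error only.

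The test was edgeR's (4.0.16) two-sided quasi-likelihood F test on 1 coefficient a day, with filterByExpr and without a prefix block. A second set existed for days 0 and 3 alone, so 2 residual degrees of freedom and the spread shared over genes carry it, and day 1 is assumed to vary like them. The labels name no cultures, so p-values measure spread between sets that may be technical. On simulated data for this comparison (22378 genes, 200 changed, 5 draws) the test recovered 0% of changes at 2-fold, 4.4% at 4-fold, 17.6% at 8-fold and 37.2% at 16-fold, with 1.2 false calls on average. Those counts were drawn around 1 mean per gene, without a separate effect of the prefix or of single high cells. The number of false calls therefore need not hold for the real sets. DESeq2 1.42.0, limma 3.58.1 (pseudocount 1), other scalings, filters, thinning and left-out sets were alternatives. R 4.3.3, numpy 2.4.6, pandas 2.3.3, scipy 1.17.1 and matplotlib 3.10.9 were used. No doublet caller was run. Promoter windows came from RefSeq (GRCm38.p6), for 19 of the 22 contractile genes.

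The members, the 28 gene lists and the naming rule were picked with earlier results of these data known. The rule names the 4 markers, the 7F factors, the 12 largest rises and falls among genes with 20 CPM or more in the higher set, found in 50% or more of its cells and with less than 50% of its counts in 1 cell, and up to 5 members of a list past 2-fold and 2 that were not. Predicted, ribosomal, histone and pseudogenes were left out, and some genes of the rule are not reported here. Genes named beyond it, among them Cnn1, Col1a1, Bgn, Lox, Tdh, Tfcp2l1, Tet1, Sox2 and Ankrd1, were chosen after their values were seen.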

Additional observations from a re-analysis of the deposited data

How the results depend on the processing

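The number of genes past 2-fold within b2 moved with the scaling, the filter and single cells. Lower genes numbered 679 with library totals, 569 with equal weight per cell and 310 with mean TPM, against 1074. Higher genes numbered 1036 with the highest cell left out of each set, against 1652. With a mean CPM of 1 or more 2719 were higher and 2025 lower, without a filter 5850 and 5172, and past 4-fold 548 and 192. DESeq2's size factors, cells of 1000000 counts or more and thinned cells changed neither count by over 1.5 times. The 55 higher and 35 lower calls of edgeR became 209 and 55 with the DESeq2 Wald test (which called 23 of the 46 named genes called by edgeR), 10 and 8 with the highest cells left out, 0 and 0 with all 10 sums (363 genes with unadjusted p under 0.05), and 0 and 0 with limma on TPM (741 of 14144). With 1 set left out they ran from 12 to 95 higher and from 14 to 72 lower. Without the b1 set of day 3 they were 45 and 14 (day 1 and day 3 then have 1 set each, assumed to vary like day 0), and without the b2 set 12 and 18. Day 1 and day 3 share only prefix b2, so same-numbered cells pair nothing. With the prefix as a replicate block 5 genes were called higher and 3 lower, and Acta2 (adjusted p = 0.0197), Trh (0.0199), Dppa5a (0.00192), Zfp42 (0.0322) and Tfcp2l1 (0.0317) were among them. The share of day 1 cells with Dppa5a was 3.45% after thinning against 10.3%. Within b2 the log2 ratio turned for Inhba (0.034) with mean TPM and for Adm (−0.47) and Ccl2 (−1.44) without the highest cell. In edgeR it turned without the b2 set of day 3 for Fbxo15 (−5.60, range to 7.99) and Stmn2 (−0.10, to 3.62). The causes were not tested. The test found few changes under 16-fold in simulated data, so a gene without a call is not shown to be level.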
